A study of Mus musculus with 10 samples.

Results

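The windows described here hold 6 genes of the canonical Wnt pathway that are known as its targets, feedback regulators or DNA-binding partners: Axin2, Nkd1, Lef1, Tcf7l2, Myc and Ccnd1. A fixed window of the mm9 mouse genome, 250 to 450 kb long, was set around each gene, and every peak overlapping a window in the 4 deposited peak lists was taken as a member. The rule takes peaks by position alone, but the genes and windows were proposed with results of these lists known. It gave 21 of the 10348 peaks in the lists, and these merged into 16 regions when peaks sharing at least 1 bp were joined. The 6 windows cover 2000 kb in all.

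In canonical Wnt signalling, a ligand stops the degradation of β-catenin by a complex built on Axin, and β-catenin then enters the nucleus. It does not bind DNA by itself, and is brought to its sites by the TCF/LEF factors, among them Lef1 and Tcf7l2. Many of the genes it switches on act back on the pathway: Axin2 rebuilds the degradation complex, and Nkd1 is an antagonist that acts on Dishevelled. In the embryonic kidney this signal drives nephron progenitors to become epithelium, while Six2, a homeodomain transcription factor, keeps them as progenitors.

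Peaks came from chromatin immunoprecipitation and sequencing of nephron progenitors that were sorted as Six2-expressing cells from embryonic kidneys at stage E16.5. All samples carried the transgene Six2GFPcre, a BAC, on a mixed strain background. Six2 was precipitated from freshly sorted cells (2 libraries). β-catenin was precipitated from sorted cells that had been pelleted and cultured for 24 h (2 libraries). The medium held BIO at 4 µM, which blocks GSK3, the kinase that marks β-catenin for degradation. Antibody and cell state differed together and cannot be told apart. The other 6 of the 10 samples, 4 inputs and 2 rabbit IgG mock libraries, were not used here, so whether a peak stands above the signal that any such library gives was not tested.

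The lists hold only the position of each peak, with no height, p-value or read count, and the depth behind a peak is unknown. The lists have 5645 peaks for Six2 replicate 1, 1622 for Six2 replicate 2, 1873 for β-catenin replicate 1 and 1208 for β-catenin replicate 2. Their order is not by position. Each list was cut into steps of 10% of its rows, and a peak was counted as recovered when the partner library, that is the other one of its antibody, had a peak on it. Recovery was high in the first step of every list (76.4%, 98.1%, 85.6% and 90.8%, in the order above) and lower in the last (4.78%, 74.2%, 4.79% and 21.5%), so that a low row number is read here as a high rank. Recovery is also bounded by the length of the partner list. The 1622 peaks of Six2 replicate 2 can lie on only a part of the 5645 of replicate 1. Low recovery in a step of replicate 1 is thus no measure by itself of how reliable its peaks are. With 2 libraries per antibody the smallest p of an exact permutation test would be 0.333, and no difference below carries a p-value.

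Peaks of both antibodies were present in the windows. Of the 21 peaks, 11 were Six2 peaks and 10 were β-catenin peaks. Six2 peaks lay in 5 windows and β-catenin peaks in 4. The Axin2, Nkd1 and Myc windows held both, the Lef1 window β-catenin alone, and the Tcf7l2 and Ccnd1 windows Six2 alone. A single region, in the Myc window, was overlapped by peaks of both antibodies. Separate positions are the usual case over the whole lists as well. Of the peaks of Six2 replicates 1 and 2, 12.9% and 23.6% lay on a β-catenin peak. Of those of β-catenin replicates 1 and 2, 36.6% and 27.9% lay on a Six2 peak. In the first step of 10% of each list the 4 shares were higher, at 37.1%, 53.7%, 54.5% and 51.7% in the same order.

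**Figure D1:**
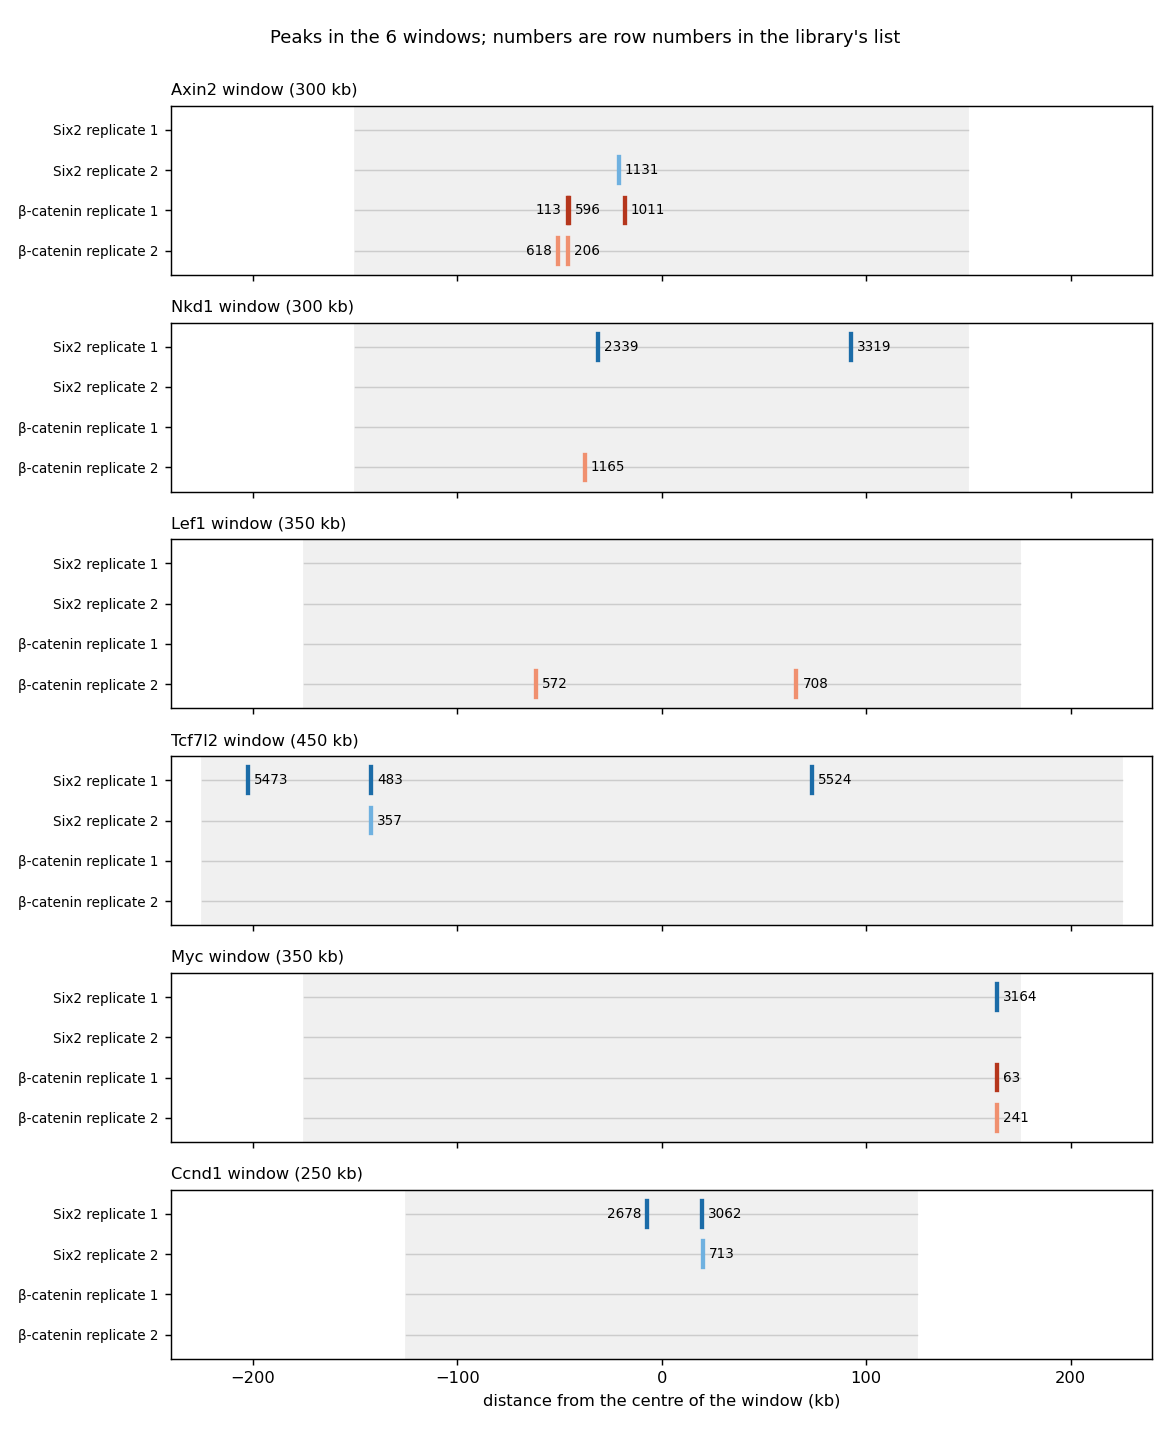
Map of the 21 peaks in the 6 windows; the x axis is the distance from the centre of the window in kb, each line is 1 library, each tick is a peak and the number beside it is its row number in that library's list. β-catenin peaks gather in the Axin2 window, where the list of replicate 1 has 3 and that of replicate 2 has 2, and are absent from the lists in the Tcf7l2 and Ccnd1 windows.

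Of the feedback inhibitors, Axin2 had the most β-catenin peaks of the 6 genes. Its window (chr11:108650000-108950000, mm9) held 5 β-catenin peaks in 4 regions and 1 Six2 peak. The leading region, at chr11:108754008-108754215, was found in both β-catenin libraries, at row 113 of 1873 in replicate 1 and row 206 of 1208 in replicate 2. No Six2 peak overlapped it. Its peaks were 121 and 208 bp wide, the narrower lay wholly inside the wider, and their midpoints were 6.5 bp apart. Over all 553 overlapping pairs of peaks of the β-catenin libraries the median distance between midpoints was 30 bp, and 14.3% of pairs were as close as this one or closer.

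The other β-catenin peaks of the Axin2 window were each in 1 library. Replicate 1 had a peak at chr11:108754437-108755047, row 596, which began 221 bp beyond the leading region. At 611 bp it was wider than most, since 97.4% of the replicate 1 peaks were no wider. Replicate 2 had a peak of 65 bp at chr11:108749316-108749380, row 618, which ended 4.63 kb before the leading region. These 3 regions together spanned 5.73 kb.

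A further pair of Axin2 regions lay 23.8 kb to the right of that group. Six2 replicate 2 had a peak of 75 bp at chr11:108778884-108778958, row 1131 of 1622. It was narrow for its list, with 1.36% of the replicate 2 peaks no wider, and it was not found in replicate 1, although 75.9% of the peaks in the same step of the list were. β-catenin replicate 1 had a peak of 650 bp at chr11:108781494-108782143, row 1011, where 97.8% of its peaks were no wider. The Six2 and β-catenin peaks did not overlap, and 2.54 kb separated them. No other Six2 and β-catenin peaks of the window came closer. From the leading β-catenin region the nearest Six2 peak was 24.7 kb away.

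**Figure D2:**
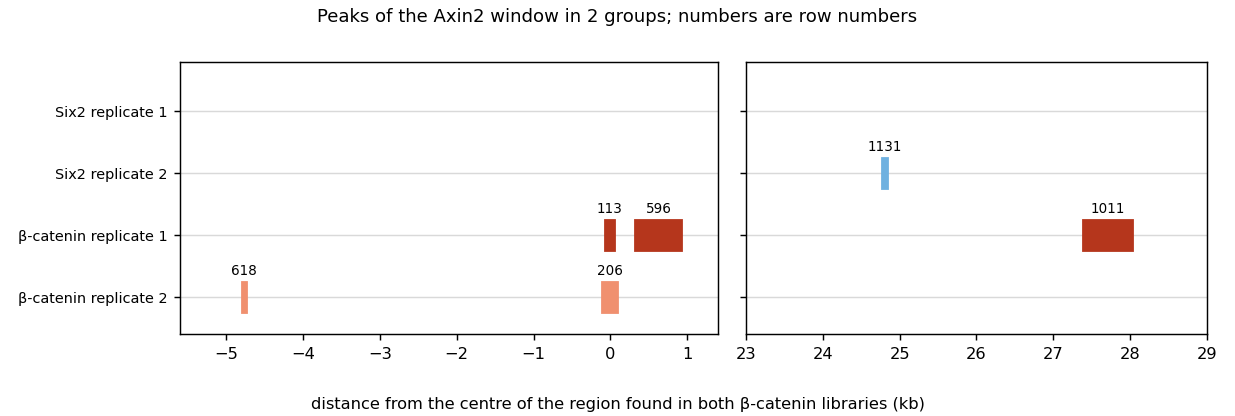
The 6 peaks of the Axin2 window drawn to scale; the x axis is the distance in kb from the centre of the region found in both β-catenin libraries, bars are peaks with their widths, and numbers are row numbers. The left panel holds the 3 regions within 5.73 kb and the right panel the Six2 peak and the 650 bp β-catenin peak 2.54 kb apart.

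To set the count of Axin2 regions against the genome, each chromosome was cut into tiles of 300 kb, the length of the window. At least 4 β-catenin regions were found in 60 of 8739 tiles (0.687%), and in 0.652% of the tiles without chromosome 2, where replicate 1 has a dense block of peaks. The count rested on both libraries. Replicate 1 alone had 3 peaks in the window, a number reached in 1.08% of tiles, and replicate 2 alone had 2, reached in 2.09%. The single Six2 peak was a common count, as 39.0% of the tiles held at least 1 Six2 region. Of the 4 regions, 2 lay 221 bp apart and were counted separately. The tiles covered whole chromosomes, with or without genes, whereas the windows were each set around a gene. How often a window around a gene reaches this count was not analysed here. Given how the genes were proposed, these shares are descriptions and no tests.

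Peaks with another peak of the same list within 1 kb, as in the Axin2 pair, were a minority in every list. The peaks of β-catenin replicate 1 at rows 113 and 596 were 271 bp apart. In that list 10.3% of the peaks had another peak of the list within 1 kb, and 4.42% when chromosome 2 was left out. The corresponding shares were 2.48% in β-catenin replicate 2, 3.51% in Six2 replicate 1 and 1.48% in Six2 replicate 2. Shares at 271 bp or closer were not analysed here.

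Nkd1, the other inhibitor, had no region found in both libraries of an antibody. Its window (chr8:90950000-91250000) held 1 β-catenin peak of replicate 2, at chr8:91062228-91062400, at row 1165 of 1208, near the end of the list. Six2 replicate 1 had peaks at chr8:91068814-91068912 (row 2339 of 5645) and chr8:91192635-91192706 (row 3319). The first of these lay 6.41 kb from the β-catenin peak, and the second was 130 kb from it. Recovery was 21.5% in the step of the β-catenin peak, against 45.6% of the whole replicate 2 list. It was 16.1% and 13.1% in the steps of the Six2 peaks, against 24.0% of the whole replicate 1 list. At least 1 β-catenin region was found in 19.2% of the tiles of 300 kb and at least 2 Six2 regions in 16.6%, so that neither count was rare.

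The windows of Lef1 and Tcf7l2, the DNA-binding partners of β-catenin, differed in which antibody had peaks in them. The Lef1 window (chr3:130700000-131050000) held 2 β-catenin peaks, both of replicate 2. They lay at chr3:130813420-130813615 (196 bp, row 572 of 1208) and chr3:130940794-130940929 (136 bp, row 708), 127 kb apart. Replicate 1 had no peak in the window. In the steps of the list that hold rows 572 and 708, 47.1% and 30.8% of the peaks were found in replicate 1. At least 2 β-catenin regions were found in 6.66% of the tiles of 350 kb.

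No Six2 peak of either library lay in the Lef1 window, which is also true of 57.3% of such tiles. The nearest Six2 peaks were 341 kb or more from the β-catenin peaks. Since the lists hold only peaks above a threshold that is not given in the sources used here, a window without a peak does not show that the protein was absent from it.

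The Tcf7l2 window (chr19:55700000-56150000) showed the reverse, with Six2 peaks and no β-catenin peak. Its leading region, at chr19:55782677-55782918, was found in both Six2 libraries. It had row 483 of 5645 in replicate 1 and row 357 of 1622 in replicate 2, which made it the Six2 region of best rank among the 6 windows. By mean row number it was number 288 of the 1348 Six2 regions found in both libraries, and number 278 when row numbers were divided by list length. The peaks were 104 and 242 bp wide, the narrower inside the wider, with midpoints 14 bp apart, against a median of 34.5 bp over the 1353 overlapping Six2 pairs. The 104 bp they shared made up 43.0% of the replicate 2 peak, so that the match between libraries was lost when a reciprocal overlap of 50% was asked for.

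Six2 replicate 1 had 2 more peaks in the Tcf7l2 window, and both were at the end of its list. They lay 60.0 kb to the left of the leading region, at chr19:55722528-55722662 (row 5473 of 5645), and 216 kb to its right, at chr19:55998558-55998689 (row 5524). In that last step of the list 4.78% of the peaks were found in replicate 2. At least 3 Six2 regions were present in 13.6% of the tiles of 450 kb, and no β-catenin region in 73.5%. The nearest β-catenin peak on the chromosome was 1850 to 2130 kb from the Tcf7l2 peaks. The Tcf7l2 window thus combined a single well-ranked Six2 region with peaks of low rank.

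Myc, a transcription factor that drives cell growth and division, had the one region of the 6 windows with peaks of both antibodies. The region, at chr15:61989012-61989136, was found in β-catenin replicate 1 at row 63 of 1873, in β-catenin replicate 2 at row 241 of 1208 and in Six2 replicate 1 at row 3164 of 5645. Six2 replicate 2 had no peak there, and the overlap with Six2 was lost without replicate 1 or when only the first 50% of each list was kept. The 3 peaks were 110, 111 and 88 bp wide, shared 86 bp (chr15:61989036-61989121) and had midpoints within 14.5 bp of one another. Its ranks were thus high for β-catenin and past the middle of the list for Six2, where 13.1% of the peaks of that step were recovered in the other Six2 library.

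The Myc region belonged to a common class. Of the 551 β-catenin regions found in both libraries, 129 (23.4%) overlapped a Six2 peak of replicate 1 alone, 121 (22.0%) overlapped Six2 peaks of both libraries, and 291 (52.8%), the Axin2 leading region among them, overlapped none. By mean row number the Myc region was number 106 and the Axin2 region number 109 of these 551. With row numbers divided by list length they were numbers 116 and 115. Their order was thus not stable, and both stood at about the same height in the β-catenin lists.

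No other peak lay in the Myc window (chr15:61650000-62000000). The region ended 10864 bp from the right edge of the window, so that a slightly narrower window would have held no peak. At least 1 Six2 region was found in 42.7% and at least 1 β-catenin region in 21.9% of the tiles of 350 kb. In the GRCm38 gene order, the next gene to the right of Myc is Pvt1, a long noncoding RNA gene. Whether the region lies in either gene was not analysed here.

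Ccnd1, which codes for cyclin D1, a cell cycle regulator, had Six2 peaks only within its window, which at 250 kb was the shortest. A β-catenin region of both libraries lay 54.4 kb past the end of that window, and widening by 100 kb took it in. The absence of β-catenin peaks thus holds for this window length only. The Ccnd1 window (chr7:152000000-152250000) held a region found in both Six2 libraries, at chr7:152144699-152145026. It had row 3062 of 5645 in replicate 1 and row 713 of 1622 in replicate 2. It was number 1094 of the 1348 Six2 regions found in both libraries (number 951 with scaled row numbers). The peaks of this region matched less well than those of the other regions found in more than 1 library. They were 303 and 127 bp wide and shared 102 bp, which is 33.7% of the wider peak, and their midpoints were 113 bp apart. This match, too, was lost at a reciprocal overlap of 50%, and also when only the first 50% of each list was kept. Among the overlapping Six2 pairs, 89.9% were as close or closer.

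Six2 replicate 1 had a further peak at chr7:152117869-152117964 (row 2678), 26.7 kb to the left. At least 2 Six2 regions were present in 13.4% of the tiles of 250 kb, and 83.3% of these tiles held no β-catenin region. The Ccnd1 counts were therefore ordinary ones for a window of that length.

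**Figure D3:**
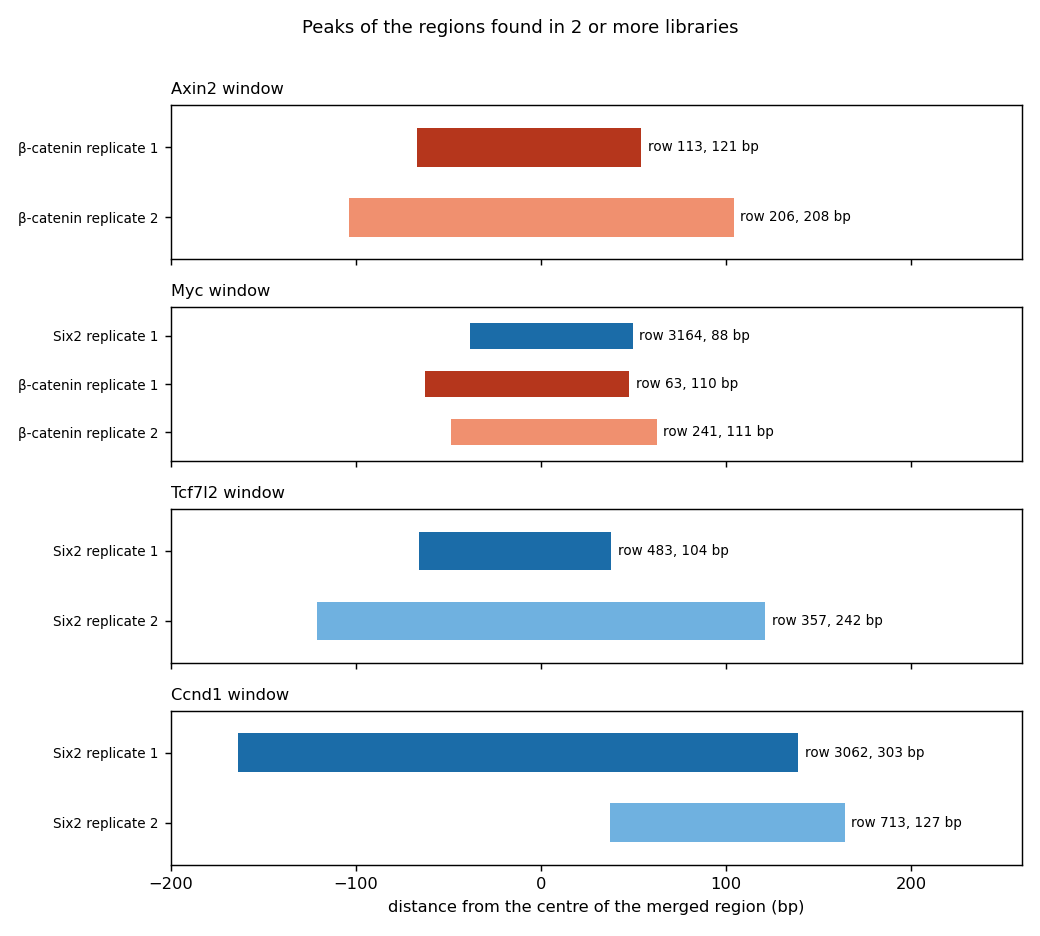
Extent of the peaks in the 4 regions found in 2 or more libraries; the x axis is the distance from the centre of the merged region in bp, and each bar is the peak of 1 library with its row number and width. The peaks of the Axin2, Myc and Tcf7l2 regions lie almost centred on each other, and those of the Ccnd1 region are offset by 113 bp.

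Across the 6 genes, sharing between libraries could not be told from that of the whole lists. Of the 8 Six2 replicate 1 peaks, 2 were found in replicate 2 (25.0%, exact 95% interval 3.19 to 65.1%), against 24.0% of the list. Of the 3 Six2 replicate 2 peaks, 2 were found in replicate 1, against 83.1%. For β-catenin, 2 of 4 peaks of replicate 1 were found in replicate 2, against 29.5%, and 2 of 6 of replicate 2 in replicate 1 (33.3%, exact 95% interval 4.33 to 77.7%), against 45.6%. With so few peaks the exact interval of each of these 4 shares held the share of the whole list. Only counting error enters these intervals, with each peak taken as independent of the others. Of the 16 regions, 12 were found in 1 library only (75.0%), and of all 7666 merged regions 73.3% were.

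The same held for sharing between the antibodies, where all 4 intervals again held the share of the whole list. The Myc region gave 1 of 8 Six2 replicate 1 peaks on a β-catenin peak, against 12.9% of the list, and 0 of 3 for replicate 2, against 23.6%. On a Six2 peak lay 1 of 4 peaks of β-catenin replicate 1, against 36.6%, and 1 of 6 of replicate 2 (16.7%, exact 95% interval 0.421 to 64.1%), against 27.9%. At these counts, a higher or lower share of common Six2 and β-catenin sites in the 6 windows was not detectable. The whole-list shares were not matched for rank, and sharing between the antibodies was more frequent in the first step of each list.

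**Figure D4:**
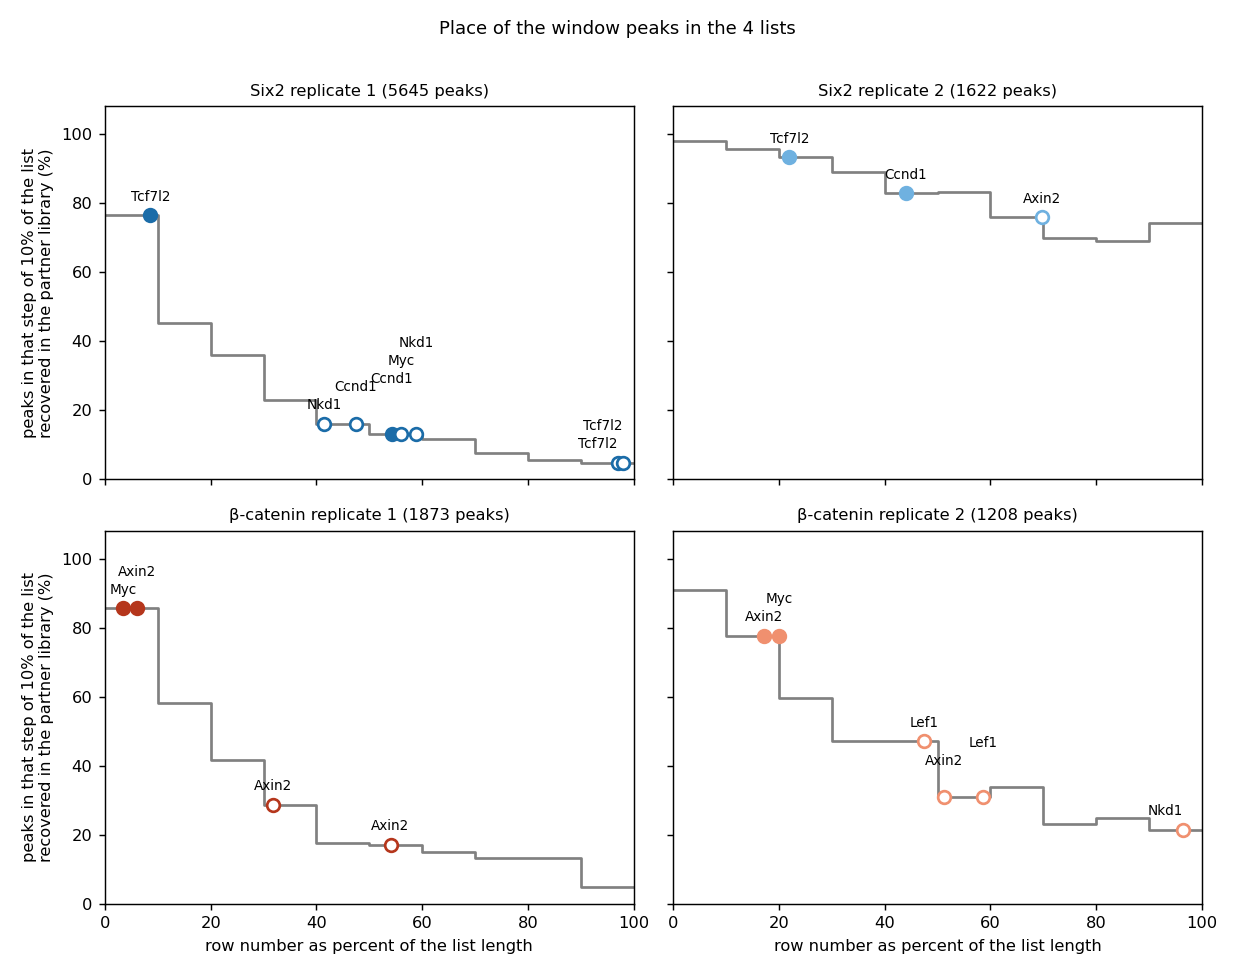
Place of the 21 window peaks in the 4 lists; the x axis is the row number as a percent of the list length and the grey steps, on the y axis, give the percent of peaks recovered in the partner library in each step of 10% of the list. Points are window peaks, filled where recovered and open where not; the Axin2 and Myc regions stand in the first 20.0% of both β-catenin lists, and the Tcf7l2 region in the first 22.0% of both Six2 lists.

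Peaks lay within 100 kb outside 4 of the windows. Outside the Axin2 window, 99.2 kb past its end, lay a region of the same kind as that of Myc. It had a Six2 replicate 1 peak at row 3174 (chr11:109049248-109049418), a β-catenin replicate 1 peak at row 367 and a β-catenin replicate 2 peak at row 231. It lay near the limit of the 100 kb searched, so that a slightly shorter distance would have left it out. In GRCm38 gene order, Axin2 lies between Cep112 and Rgs9 among protein-coding genes, and which gene is nearest to this region was not analysed here. A β-catenin region of both libraries, at rows 1504 and 383, lay 54.4 kb past the end of the Ccnd1 window, from chr7:152304406-152304532. With it, a β-catenin region stood 159 kb from the Ccnd1 Six2 region of both libraries.

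The other peaks within 100 kb of a window were of Six2 replicate 1 alone. The Tcf7l2 window had one 6.75 kb past its end (row 4628). The Nkd1 window had one 65.8 kb before its start (row 2283) and one 29.2 kb past its end (row 5398). The windows of Lef1 and Myc had no peak of any library within 100 kb of their edges.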

How the data were processed

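The values deposited by the authors are of another kind than counts or signal. Each file has 3 columns (chromosome, start, end) and lists the peaks of 1 library, with no header. The submitters' processing notes name the mm9 build and CASAVA 1.6. No source used here gives the peak caller, its threshold or its control.

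The members and gene lists were chosen with earlier results of these data known. Groups came from the antibody labels. Replicate numbers follow accession order and pair nothing. Whether replicates came from separate sorts or cultures is not in the labels. Positions are 1-based. Peaks were matched from 1 bp of overlap. Regions found in both libraries and regions in tiles were merged within an antibody, and tiles ran from the first base of a chromosome to its last peak. Since the windows held 40 merged regions or fewer, all were named. Shares have exact (Clopper-Pearson) 95% intervals. Overlap and merging were tested on simulated lists. Alternatives were windows widened by 100 kb, leaving out each library, using only the first 50% of each list, and matching peaks by a midpoint distance of at most 500 bp or by 50% reciprocal overlap. The Axin2 counts by library and without chromosome 2 were added after seeing the data. The gene table is of assembly GRCm38 and was used for gene order alone: all 6 genes matched. Distances to start sites, other pathway genes, peak sequences and motifs need an mm9 reference and were not analysed here. Python 3.11.15, pandas 2.3.3 and SciPy 1.17.1 were used.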

Additional observations from a re-analysis of the deposited data

How the results depend on the processing

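The windows held 21 peaks, and 11 when only the first 50% of each list was used, which removes rows by construction. Leaving out 1 library gave 13 to 18 peaks, and 13 without Six2 replicate 1, the longest list. The 2 Six2 regions found in both libraries became 0 with a reciprocal overlap of 50%, where the 2 peaks of each region differ in width, and 1 (Tcf7l2) with the first 50% of each list. The 2 β-catenin regions found in both libraries were 2 under each change of overlap rule and list length, and 4 with windows widened by 100 kb, which take in the regions beyond the Axin2 and Ccnd1 windows. The 1 region of both antibodies became 0 when only the first 50% of each list was kept, and 2 with widened windows. The added region lay 99.2 kb past the Axin2 window, so that a slightly smaller widening would not have taken it in. Without each library in turn it was 0 to 1, and 0 without Six2 replicate 1. The 4 β-catenin regions of the Axin2 window were 2 without β-catenin replicate 1 and 3 without replicate 2. No paired analysis was possible because the replicate numbers follow accession order and no result comes from a test. The unknown depth limits what a missing peak can show.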
